A study of Homo sapiens with 36 samples.

Results

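DU145, a human prostate cancer (PCa) line that the labels class as osteolytic (LPCa), was compared with and without RAW264.7 cells, a mouse macrophage line used as osteoclast (OC) precursors. The comparison rests on 4 of the 36 libraries of the series, namely 2 DU145 libraries from co-culture with RAW264.7 cells and 2 from mono-culture. They were chosen by their labels alone. All 4 cultures received 50 ng/mL of mouse soluble RANKL, so RANKL was present in both arms and only the RAW264.7 cells differed. DU145 carried no transgene or deletion in any culture, the medium was αMEM with serum, and RNA was taken from the PCa side on day 5. The series also holds 22Rv1, a further LPCa line, and the osteoblastic lines (BPCa) C4-2 and C4-2B, each with the same pair of cultures, and every line was also grown without RANKL, alone or with MG63 osteoblast-like (OB) cells. In the horizontal NICO-1 chamber a porous filter separated the cell types, so secreted factors and vesicles could pass between the wells. The osteoclast side of the cultures is not analysed here, and RANKL-treated RAW264.7 cells can only stand in for human osteoclasts in part.

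Osteoclasts form when macrophage precursors receive RANKL through its receptor RANK, and tumour cells in bone are known to exchange cytokines, growth factors and matrix-derived signals with them. Tumour cells can also make their own sterols. Acetyl-CoA is built into mevalonate, then into isoprenoid units, squalene and lanosterol, and a last series of enzymes turns lanosterol into cholesterol. When cell sterol is low, the transcription factor SREBF2 leaves the endoplasmic reticulum with its escort SCAP and switches on the genes of this route together, while INSIG1 holds the pair back when sterol is plentiful.

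Values are CPM, that is, a gene's estimated counts scaled to the total of its library. The 4 libraries held 12582994 to 14462543 counts, near each other in depth. The labels do not say whether libraries of a group came from separate cultures, so the p-values measure the spread between these libraries, which may be technical. Epithelial genes were abundant in all 4, with keratin gene KRT8 at 913 to 1004 CPM. Of 24 macrophage and osteoclast markers, 10 had at most 3 counts in each of the 4 libraries, and TYROBP, AIF1, DCSTAMP and OCSTAMP were at 0 in all 4. The summed level of the 24 markers was 81.4 and 96.0 CPM with RAW264.7 cells and 87.7 and 96.3 CPM without, and most of it was CD68, at 44.5 to 49.6 CPM. The counts are of human transcripts, so these values cannot show whether RNA of the mouse RAW264.7 cells was present.

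Few genes passed the test between DU145 cells with and without RAW264.7 cells. Of 11525 genes tested, 3 passed an adjusted p of 0.05 (0.026%, edgeR quasi-likelihood test with Benjamini-Hochberg adjustment): XAB2 and PLAAT1 fell (0.0174%) and ZNF595 rose (0.00868%). At an unadjusted p under 0.05 there were 737 genes (6.39%), of which 385 were lower (3.34%) and 352 higher (3.05%) with RAW264.7 cells, and DESeq2 called 11 genes at the adjusted threshold. A fold above 2 at an unadjusted p under 0.05 was found for 62 genes (0.538%). Among 8953 genes with a mean of at least 10 CPM, 95.7% differed by less than 1.2-fold between the groups and 5 differed by more than 2-fold.

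**Figure D1:**
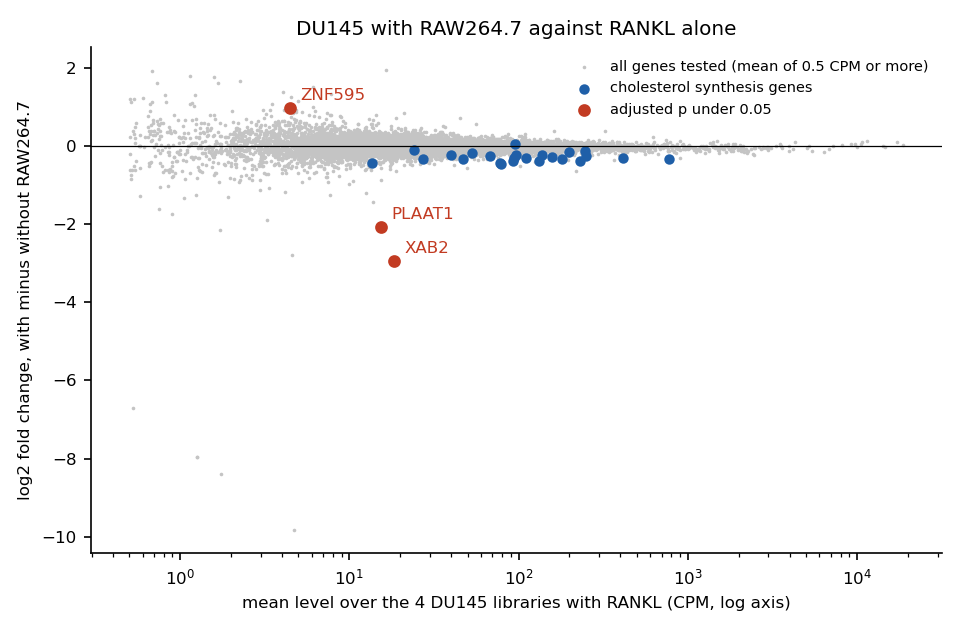
Each point is a gene, with its mean level over the 4 DU145 libraries with RANKL in CPM on a log axis (x) and its log2 fold change with minus without RAW264.7 cells (y). Most genes lie at 0, XAB2, PLAAT1 and ZNF595 (red) passed the adjusted threshold, and 23 of the 24 tested cholesterol synthesis genes (blue) lie below 0, all but SREBF2, with a median of -0.30 over the 24; the lowest grey points had no counts with RAW264.7 cells and did not pass.

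XAB2, which codes for a protein of the splicing machinery that also takes part in transcription-coupled DNA repair, lies at chr19:7619525-7629565 on the minus strand (GRCh38, GENCODE annotation). Its level was 4.16 and 4.36 CPM with RAW264.7 cells and 32.0 and 32.9 CPM without. The groups did not overlap, and XAB2 fell by 2.94 on the log2 scale (SE 0.11, adjusted p = 2.85e-09). Nearly all of the gap was in transcript ENST00000358368, at 2.11 and 2.13 CPM against 30.5 and 30.3 CPM, and the other 3 transcripts of the gene were each at 1.85 CPM or less in these 4 libraries. The DU145 mono-cultures without RANKL had XAB2 at 28.7, 2.89 and 3.03 CPM, so replicates of 1 group spanned the same range with no RAW264.7 cells present. MG63 co-cultures had 23.9 and 48.9 CPM, and all 27 libraries of the other lines had 15.5 to 43.5 CPM. When the 9 DU145 libraries were fitted together, the adjusted p of XAB2 was 1.0.

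PLAAT1, a phospholipid-modifying acyltransferase gene at chr3:193241125-193277738 on the plus strand, was at 6.05 and 5.75 CPM with RAW264.7 cells and at 24.6 and 24.8 CPM without. The groups were apart, and PLAAT1 fell by 2.08 on the log2 scale (SE 0.22, adjusted p = 0.0237). As with XAB2, the mono-cultures without RANKL were split, at 16.7, 3.56 and 15.2 CPM, and the MG63 co-cultures were at 21.02 and 7.95 CPM. The adjusted p of PLAAT1 was 0.173 to 0.346 when any of the 4 libraries was left out and 0.0919 with the replicate number as a block. The other 3 lines had at most 0.138 CPM.

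ZNF595, a zinc finger gene at chr4:53285-88211 on the plus strand, rose by 0.98 on the log2 scale (SE 0.14, adjusted p = 0.0237), from 2.66 and 3.33 CPM to 5.55 and 6.27 CPM. Its level in DU145 was low beside the 49.0 to 235 CPM of the other lines, and the part gained lay in different transcripts in the 2 co-cultures. ENST00000610261 was at 3.29 and 1.62 CPM with RAW264.7 cells and 1.49 and 2.51 CPM without, and ENST00000609518 at 0.87 and 3.14 CPM against 0 in both mono-cultures. Zinc finger genes share sequence with close relatives, so reads can be split between them and this value is uncertain. Without any of the 4 libraries ZNF595 did not pass (adjusted p 0.0912 to 0.416).

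**Figure D2:**
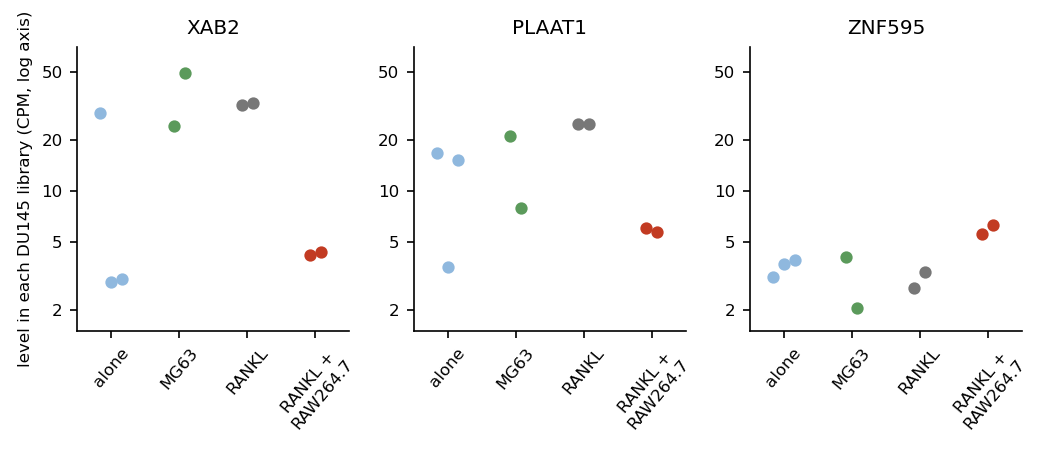
Level of XAB2, PLAAT1 and ZNF595 in each of the 9 DU145 libraries (points, CPM on a log axis), by culture: mono-culture, MG63 co-culture, RANKL alone, RANKL with RAW264.7 cells. XAB2 at 4.16 and 4.36 CPM with RAW264.7 cells lies near 2 of the 3 mono-cultures without RANKL (2.89 and 3.03 CPM).

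Cholesterol synthesis genes were lower with RAW264.7 cells by a small amount that recurred across the route. Of 25 listed genes, 24 reached the count minimum and were tested. None passed the adjusted threshold (smallest adjusted p = 0.274), while 21 of 24 were lower at an unadjusted p under 0.05 (3.34% of all genes tested) and 23 of 24 had a log2 fold change below 0 (49.2% of all genes). The count of 21 was 10 when the 9 DU145 libraries were fitted together, where 0.807% of all genes were lower at that p. The median of the 24 was -0.30 on the log2 scale, or 18.6% lower, beside 0.00 over all genes tested. With a DU145 library left out, the median of the list was -0.32 to -0.24. Both co-cultures were below both mono-cultures for 21 of the 24, against 15.3% of all genes tested. DESeq2 called FDPS and TM7SF2.

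At the early steps to mevalonate, both co-cultures were below both mono-cultures. ACAT2, which joins acetyl-CoA units, was at 12.3 and 11.2 CPM with RAW264.7 cells and 16.3 and 14.9 CPM without (log2 fold change -0.43, SE 0.16). HMGCS1, which makes HMG-CoA, was at 189 and 214 CPM against 269.5 and 246 CPM (-0.37, SE 0.13).

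The isoprenoid steps followed the same order of libraries. MVK, mevalonate kinase, was at 41.3 and 43.0 CPM against 54.8 and 50.01 CPM (-0.33, SE 0.09). MVD, the decarboxylase that yields isopentenyl diphosphate, was at 106.0 and 123 CPM against 146 and 151 CPM (-0.39, SE 0.09, unadjusted p = 0.000653). FDPS, which makes farnesyl diphosphate, was at 669 and 706 CPM against 846 and 859.7 CPM (-0.32, SE 0.07, unadjusted p = 0.000214). In all 3 genes both co-cultures lay below both mono-cultures. IDI1, the isomerase of this step, had a log2 fold change of -0.33 and PMVK, the second kinase, of -0.19.

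From squalene to cholesterol, TM7SF2 showed the largest difference of the list. TM7SF2, a sterol C14-reductase, was at 62.4 and 71.9 CPM with RAW264.7 cells and 94.8 and 86.8 CPM without (-0.45, SE 0.09, unadjusted p = 0.000197). SQLE, which adds the first oxygen to squalene, was at 120.1 and 134 CPM against 149 and 147 CPM (-0.24, SE 0.07), and LSS, which closes the rings, was at 75.8 and 91.9 CPM against 101 and 105 CPM (-0.31, SE 0.12). MSMO1, which removes methyl groups from the sterol ring, had a log2 fold change of -0.39 (SE 0.12), and EBP, a sterol isomerase, had -0.22 (SE 0.07). HSD17B7 was the only enzyme of the list whose groups overlapped, with 21.8 and 24.8 CPM against 21.9 and 27.8 CPM.

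The regulators differed from each other. INSIG1, itself switched on by SREBF2, was at 62.2 and 70.5 CPM with RAW264.7 cells and 94.3 and 82.5 CPM without (-0.43, SE 0.14). The mRNA of SREBF2 was at 90.5 and 103 CPM against 94.5 and 91.0 CPM, and its groups overlapped (0.05, SE 0.06). In bulk RNA, fewer cells with a transcript and less transcript per cell cannot be told apart.

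**Figure D3:**
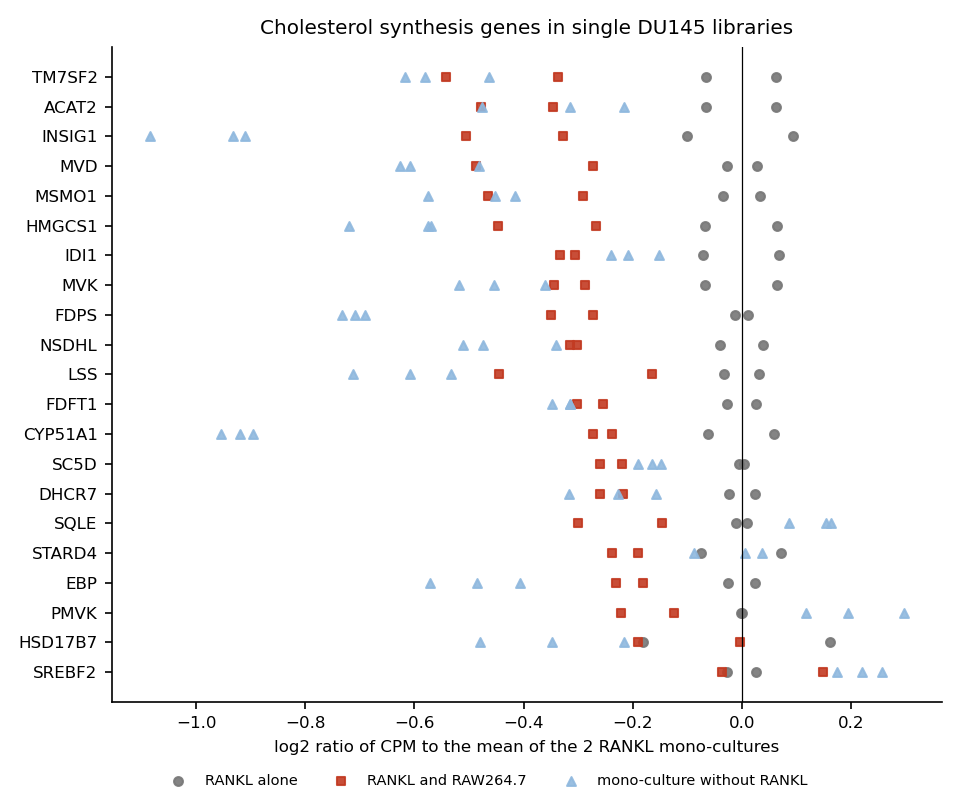
For 21 of the 24 tested cholesterol synthesis genes, log2 ratio of the CPM in a DU145 library to the mean of the 2 RANKL mono-cultures: RANKL alone (grey), RANKL with RAW264.7 cells (red squares), mono-culture without RANKL (blue triangles). The red squares are left of both grey points for 19 genes, all but HSD17B7 and SREBF2. All blue triangles are left of both red squares for HMGCS1, MVK, FDPS, FDFT1, LSS, CYP51A1, NSDHL, HSD17B7, EBP and INSIG1. They are right of both red squares for IDI1, SC5D, STARD4, SQLE, PMVK and SREBF2, and the remaining genes are mixed.

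CCAAT boxes, bound by the factor NF-Y that is known to work beside SREBF2, were found in most of the promoters searched. Promoter sequence was found in the RefSeq table (GRCh38.p14) for 18 of the 24 tested genes, and the 250 bases before the start site were searched on both strands. CCAAT was in 15 of 18 (83.3%), against 35.5% of the promoters of all genes tested, and GGGCGG, the GC box, was in 17 of 18 (94.4%) against 69.0%. PMVK, CYP51A1 and IDI1 had no CCAAT in this window. The sterol regulatory element in the form TCACNCCAC was in 1 of 18, the promoter of SREBF2, and in 0.864% of the promoters of tested genes. In the SREBF2 promoter it began 133 bases before the start site and did not overlap the CCAAT box. A match to these letters is a description and not a shown binding site. The promoters of the 3 genes with the smallest p of the list are given below, with CCAAT on either strand (CCAAT or ATTGG) in capitals. They lie at chr11:65111622-65111871 on the plus strand for TM7SF2, chr1:155308616-155308865 on the plus strand for FDPS and chr16:88663092-88663341 on the minus strand for MVD.
TM7SF2: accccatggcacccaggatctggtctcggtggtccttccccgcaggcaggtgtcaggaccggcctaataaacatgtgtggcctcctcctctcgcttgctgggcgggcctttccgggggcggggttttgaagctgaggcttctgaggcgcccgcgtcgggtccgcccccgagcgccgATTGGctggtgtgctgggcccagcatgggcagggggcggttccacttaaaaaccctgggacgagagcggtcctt
FDPS: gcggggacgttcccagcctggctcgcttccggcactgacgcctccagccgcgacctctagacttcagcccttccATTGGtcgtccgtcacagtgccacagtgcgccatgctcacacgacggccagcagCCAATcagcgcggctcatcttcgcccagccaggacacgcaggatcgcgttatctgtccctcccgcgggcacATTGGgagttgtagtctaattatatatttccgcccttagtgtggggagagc
MVD: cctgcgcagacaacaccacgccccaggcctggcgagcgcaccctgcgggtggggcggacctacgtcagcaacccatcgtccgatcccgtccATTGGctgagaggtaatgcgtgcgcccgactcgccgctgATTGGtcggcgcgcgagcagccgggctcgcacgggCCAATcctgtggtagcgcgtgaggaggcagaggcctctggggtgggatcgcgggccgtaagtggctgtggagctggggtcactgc

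The size and sign of the shift depended on which mono-cultures served as control. The 24 genes summed to 3205 and 3399 CPM with RAW264.7 cells and 4016 and 3924 CPM with RANKL alone. Without RANKL, the DU145 mono-cultures summed to 2945, 3042 and 3131 CPM, and the MG63 co-cultures to 1939 and 2619 CPM. In this sum, to which abundant genes contribute most, the libraries with RANKL alone were the highest of the 9 and the RAW264.7 co-cultures stood between them and the mono-cultures without RANKL. Gene by gene, 9 of the 24 had the co-cultures between both kinds of mono-culture. In a fit of all 36 libraries the median log2 fold change of the list was 0.18 for the RAW264.7 co-cultures against the mono-cultures without RANKL, with 18 of 24 above 0. For RANKL alone against mono-culture without RANKL it was 0.44, with 21 of 24 above 0. These comparisons share libraries. The mono-cultures without RANKL were sequenced to 29847346 to 34149876 counts, more than the libraries with RANKL, and 4366 of 13454 genes differed between the kinds of mono-culture, so RANKL cannot be told apart from other differences between those sets.

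The median of the cholesterol list was further below 0 in DU145 than in the other lines, and no gene of it passed an adjusted test of the difference (0.0347% of all genes did). The median log2 fold change with RAW264.7 cells was -0.04 in 22Rv1, -0.08 in C4-2 and -0.12 in C4-2B, against -0.30 in DU145. Most members were below 0 in every line, with 20 of 24 in 22Rv1, 19 in C4-2, 19 in C4-2B and 23 in DU145. The share of all genes below 0 was taken for DU145 only, at 49.2%. At an unadjusted p under 0.05, 0 of 24 genes were lower in 22Rv1 (2.85% of all genes tested), 4 in C4-2 (3.32%) and 5 in C4-2B (3.46%). In the edgeR test of the change in DU145 minus the mean change in the other 3 lines, 9 of 24 genes were more negative in DU145 at an unadjusted p under 0.05 (3.6% of all genes), 21 of 24 differences were below 0 (50.4% of all genes), and none passed after adjustment (smallest adjusted p = 0.141). That smallest value was for TM7SF2, which had log2 fold changes of 0.06, 0.14 and 0.19 in 22Rv1, C4-2 and C4-2B (difference -0.58, SE 0.10). HMGCS1 was lower in C4-2B by as much as in DU145 (-0.42 and -0.37), with a difference of -0.08 (SE 0.16) from the mean of the other lines.

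**Figure D4:**
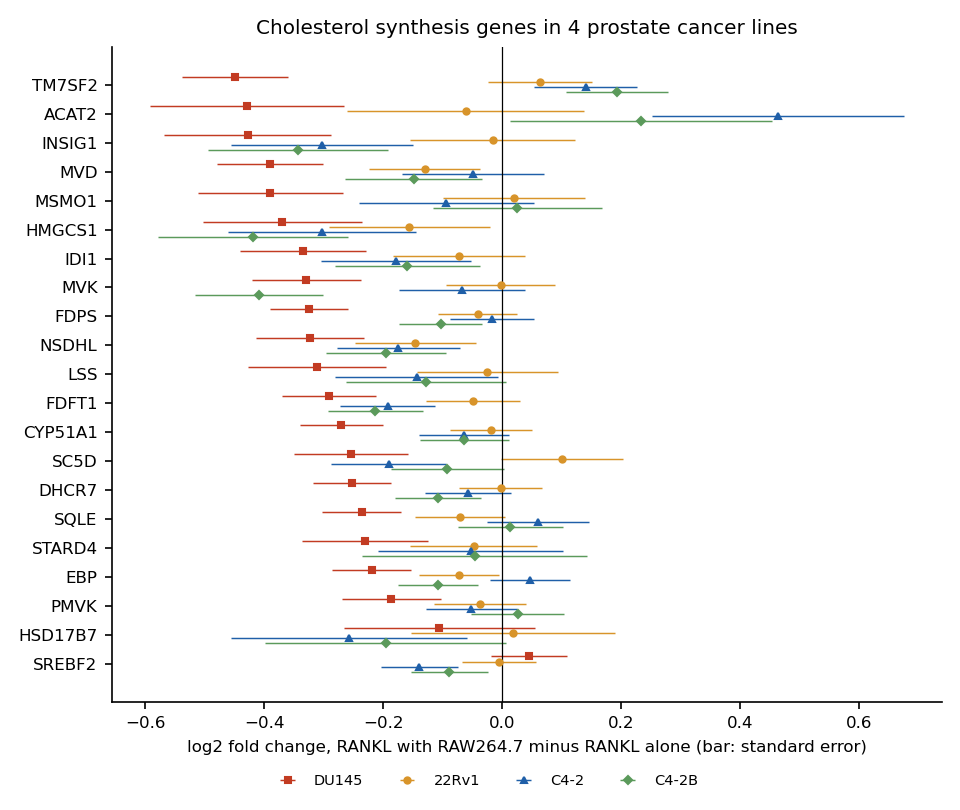
Log2 fold change with minus without RAW264.7 cells (x, bars show the standard error) of 21 of the 24 tested cholesterol synthesis genes in DU145, 22Rv1, C4-2 and C4-2B. DU145 values (red squares) run from -0.45 to 0.05, and TM7SF2 is below 0 in DU145 alone.

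Fatty acid synthesis genes, many of them under the related factor SREBF1, leaned the same way by less. The median over 13 tested genes was -0.12; 4 were lower at an unadjusted p under 0.05 (3.34% of all genes tested), none was higher (3.05%), and none passed the adjusted test. ACSS2, which makes acetyl-CoA from acetate, was at 33.5 and 36.5 CPM with RAW264.7 cells and 52.7 and 44.3 CPM without (-0.48, SE 0.16). FADS2, a desaturase, was at 344 and 391 CPM against 435 and 410.1 CPM (-0.22, SE 0.07), and ACLY, which makes cytosolic acetyl-CoA from citrate, had a log2 fold change of -0.22. LPIN1, a phosphatidate phosphatase, had -0.18. The groups overlapped for FADS1 and ELOVL5, and SREBF1 mRNA was at 21.2 and 29.2 CPM against 20.6 and 25.1 CPM.

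Among genes for signals that osteoclasts and tumour cells are known to exchange, no member of the lists of chemokines, cytokines acting on bone, NF-kB feedback and target genes, STAT3 and IL-6 family genes, or interferon-stimulated genes reached an unadjusted p of 0.05, with 6, 9, 21, 12 and 23 members tested. The medians were 0.09, 0.06, 0.07, 0.02 and -0.06 on the log2 scale. In the NF-kB list 15 of 21 members were above 0, and 9 of 21 had both co-cultures above both mono-cultures (20.3% of all genes tested). CXCL2, a neutrophil-attracting chemokine, was at 41.5 and 36.1 CPM with RAW264.7 cells and 29.8 and 30.2 CPM without (0.36, SE 0.17, unadjusted p = 0.0587). NFKB2, a subunit of NF-kB, had a log2 fold change of 0.19 (SE 0.09) and CSF1, the growth factor of macrophages and osteoclast precursors, of 0.12 (SE 0.08). CSF1 was expressed at 92.9 and 109.6 CPM with RAW264.7 cells and 96.9 and 87.2 CPM without, so its groups overlapped. The next smallest p in these lists belonged to TNFAIP2 (0.26), CXCL16 (0.21), VEGFA (-0.09), IL6ST (0.12), BCL6 (-0.10), IFI35 (-0.35) and DTX3L (0.24).

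The RANK axis itself was low in DU145. TNFRSF11A, which codes for RANK, was at 6.20 and 6.61 CPM with RAW264.7 cells and at 5.10 and 5.03 CPM without, under the count minimum of the test. TNFSF11, the human gene for RANKL, had 0 and 0.165 CPM with RAW264.7 cells and 0 in both mono-cultures, and TNFRSF11B, the decoy receptor osteoprotegerin, had 0.06 to 0.90 CPM. Among 8 tested genes of RANK signalling, FOS, an immediate early gene of the AP-1 factor, was the 1 member higher at an unadjusted p under 0.05 (3.05% of all genes tested), with 7.62 and 6.04 CPM against 3.74 and 3.66 CPM (0.87, SE 0.31, adjusted p = 0.639). FOS was under the count minimum in the DU145 libraries and entered the test through the other lines. Its log2 fold changes in 22Rv1, C4-2 and C4-2B were 0.63, 2.56 and 4.09. The adaptor TRAF2 had a log2 fold change of 0.15 (SE 0.12).

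At an unadjusted p under 0.05, 2 of 18 immediate early genes, 2 of 19 antigen presentation genes, 1 of 16 YAP and TEAD target genes, 1 of 16 EGF receptor family and ligand genes and 1 of 15 epithelial-mesenchymal state genes were higher, against 3.05% of all genes tested. Both co-cultures were above both mono-cultures for 9 of 16 YAP and TEAD target genes, 8 of 19 antigen presentation genes and 6 of 18 immediate early genes, against 20.3% of all genes tested, and the medians of these lists were 0.11, 0.05 and 0.04. The same order held for 4 of 16 EGF receptor family and ligand genes, with 4 others in the opposite order, and for 4 of 15 epithelial-mesenchymal state genes. Among the immediate early genes, FOS was under the count minimum in DU145, and JUNB, an AP-1 subunit, was at 55.1 and 55.4 CPM against 50.1 and 45.8 CPM. ERBB2, a receptor of the EGF receptor family, was at 25.3 and 28.8 CPM with RAW264.7 cells and 10.0 and 19.99 CPM without (0.84, SE 0.26, adjusted p = 0.579). The 2 ERBB2 mono-cultures differed from each other by more than the higher of them differed from either co-culture. FN1, fibronectin, was at 11.3 and 11.8 CPM against 9.15 and 8.42 CPM, and AXL, a receptor kinase and YAP target, at 429 and 445 CPM against 391 and 408 CPM. Of 9 proteases and inhibitors, ADAMTS1, a matrix protease, was the 1 member higher at that p, at 0.70 and 1.502 CPM against 0.49 and 0.60 CPM. These levels were under the count minimum in DU145, and ADAMTS1 entered the test through the other lines. The protease list median was -0.06, 6 of 9 were below 0 and 5 of 9 had both co-cultures below both mono-cultures (15.3% of all genes). The MHC class I gene HLA-B had a log2 fold change of 0.11 and the immunoproteasome gene PSMB9 of 0.42. None of these passed the adjusted test.

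Stress and metabolic genes showed a few members lower at an unadjusted p under 0.05. Of 32 tested unfolded protein and ATF4 genes, 4 were lower and 1 was higher, against 3.34% and 3.05% of all genes tested, with a list median of -0.03. PHGDH, which opens serine synthesis, was at 82.3 and 82.2 CPM with RAW264.7 cells and 95.6 and 94.8 CPM without (-0.23, SE 0.06), and DDIT3, the stress factor CHOP, at 23.1 and 27.9 CPM against 32.1 and 35.9 CPM (-0.42, SE 0.12). SLC7A5, an amino acid transporter, was the higher one (0.17). PGK1 was the only glycolysis and hypoxia gene of 31 below that p, at 98.9 and 118 CPM against 147.5 and 135 CPM (-0.40, SE 0.14), while the list median was 0.02. Of 19 NRF2 and iron genes 3 were lower (3.34% of all genes), among them PGD (-0.10) and AKR1C3 (-0.53), and OSGIN1 (0.32) was higher (3.05%). Of 9 tested metallothionein and zinc transporter genes, only MT1X was lower at that p (-0.23), against 3.34% of all genes.

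Genes of the mitochondria, ribosome and nucleosome differed by little. Of 33 nuclear encoded respiratory chain genes, 4 were lower at an unadjusted p under 0.05 (3.34% of all genes tested), among them NDUFB3 (-0.22) of complex I and COX5B (-0.19) of complex IV. The 13 mitochondrially encoded genes gave 2 higher (3.05% of all genes), MT-CO1 (0.13) and MT-ND5 (0.11). Cytosolic ribosomal proteins were below 0 in 33 of 36 (49.2% of all genes) with a median of -0.06, and 20 of 36 had both co-cultures below both mono-cultures (15.3% of all genes). RPS12 had -0.19, and RPL10, whose reads can be shared with near-identical copies, was at 3.69 and 14.5 CPM against 2.34 and 3.99 CPM. Histone genes H2AC6 (-0.34) and H1-2 (-0.16) were the 2 of 13 below that p (3.34% of all genes were lower). Over the 8953 genes with at least 10 CPM, the log2 fold change had a Spearman correlation of 0.19 with transcript length, a description over genes that share the same 4 libraries, and correction for length and GC content left the cholesterol median at -0.29.

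No proliferation or lineage marker reached an unadjusted p of 0.05. The median of 36 cell cycle genes was 0.02; CCNE1 (-0.25) and the proliferation marker MKI67 (0.09) had the smallest p. The medians were -0.01 over 10 epithelial markers and 0.16 over 12 luminal prostate markers, with CLDN7, a tight junction gene, at 0.15 and KLK2, a kallikrein protease gene, at 0.40. Only 4 luminal markers reached the count minimum in the DU145 libraries with RANKL, and their median was 0.05. Over the 12 it was 0.02 without RANKL mono-culture replicate 1. Of 18 TGF-beta response genes, BHLHE40 was lower at an unadjusted p under 0.05 (-0.23; 3.34% of all genes were lower), while the list median was 0.09, 12 of 18 were above 0 and 8 of 18 had both co-cultures above both mono-cultures (20.3% of all genes). The mesenchymal markers of MG63 cells were nearly absent, with 7 of 14 at no more than 3 counts in each of the 4 libraries.

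**Figure D5:**
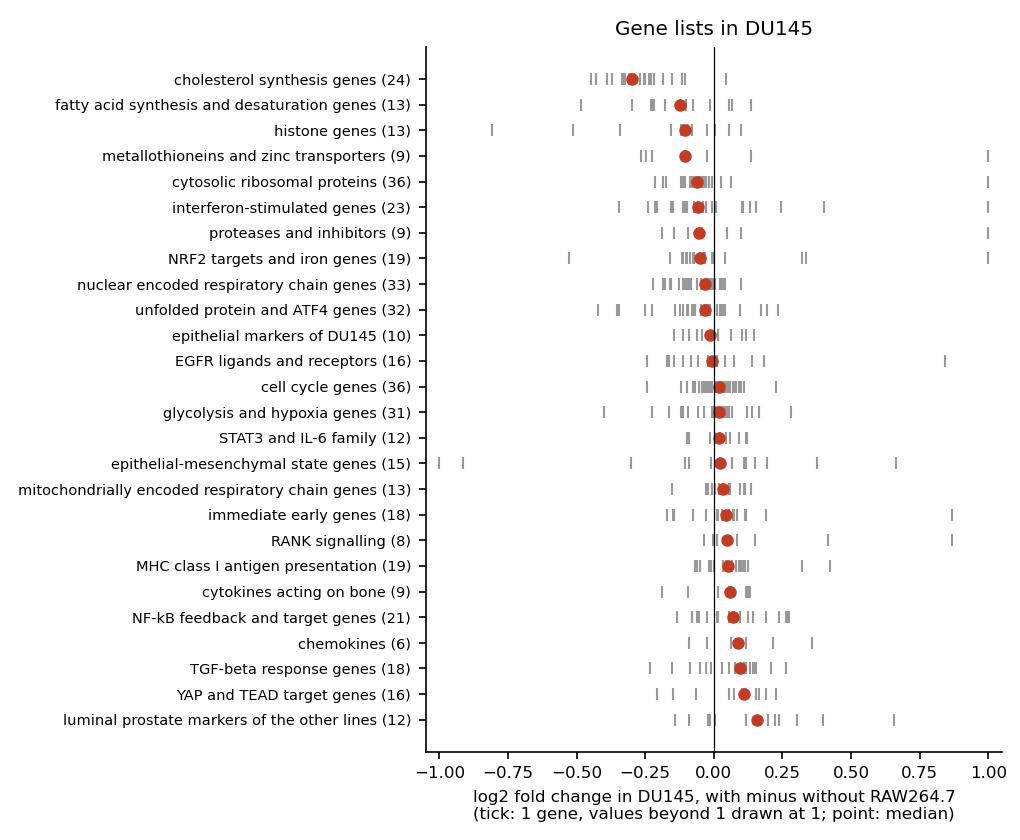
Log2 fold change with minus without RAW264.7 cells in DU145 for the members (ticks, drawn at 1 or -1 when beyond) and the median (red point) of 26 lists with at least 6 tested genes, whose number stands in brackets. The cholesterol list has the lowest median, at -0.30, and the other 25 medians lie between -0.12 and 0.16. The highest is that of the luminal prostate markers, of which only 4 reached the count minimum in the DU145 libraries with RANKL.

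SERPINA3 and LCN2, which the study followed in BPCa with OB cells, and GAL3ST1, which it named for LPCa with OB cells, were low here. SERPINA3, an antiprotease of the acute phase, was at 0.09 and 0 CPM with RAW264.7 cells and 0.28 and 0.14 CPM without. LCN2, a secreted lipocalin, was at 2.35 and 2.38 CPM against 1.73 and 1.72 CPM, and GAL3ST1, a sulfotransferase of glycolipids, at 3.20 and 4.06 CPM against 4.04 and 2.66 CPM. LCN2 alone had its co-cultures above its mono-cultures (20.3% of all genes tested did). None of these had enough counts in the libraries with RANKL to enter the test.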

How the data were processed

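Poly-A selected, strand-specific MGI libraries were sequenced from PCa cells. The authors deposited estimated counts per transcript from kallisto; the submitters' processing notes also name FastQC and the build hg19. The paper states that it summarized the data with tximport and analysed scaled TPM counts. Whether such scaling preceded deposit is not given in the sources used here. Repeated lines of 1179 transcripts, with identical values, were kept once, transcripts were summed by gene symbol (27852 genes), and the 0.526% to 0.764% of counts without a symbol stayed in the library totals only. Sums were rounded and fitted with edgeR 4.0.16 (R 4.3.3; TMM, quasi-likelihood test, Benjamini-Hochberg) in the 16 libraries with RANKL, with a mean for each line and culture and 8 residual degrees of freedom, keeping genes that reached 100 counts in 1 or more of these libraries. SE is the log2 fold change over the root of F. Alternatives included DESeq2 1.42.0, limma-voom 3.58.1, other filters, scalings, sample sets, blocks and leaving out each DU145 library; length and GC correction was added after the data were seen. Named genes were called genes, the 2 members with the smallest p of each list, the 5 genes with the smallest p between lines, SERPINA3, LCN2, GAL3ST1 and the RANK axis. Further members of the cholesterol, fatty acid, stress and NRF2 lists, and the genes of the last section, were named outside this rule, after their values were seen. Some members of the lists and 1 list are not reported here by name. Members and lists were chosen with earlier results of these data known. With 2 against 2 libraries an exact permutation test cannot go below p = 0.333, so none was used. Coordinates come from GENCODE (GRCh38) by transcript identifier, where 95.3% of transcripts matched.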

Additional observations from a re-analysis of the deposited data

Results flagged for a closer look

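For 4 genes the change with RAW264.7 cells in DU145 differed from the mean change in 22Rv1, C4-2 and C4-2B (edgeR quasi-likelihood test of the difference, Benjamini-Hochberg adjustment over 11525 genes, 0.0347% called). XAB2 differed by -2.95 (log2, SE 0.12, adjusted p = 9.83e-09), with log2 fold changes of 0.08, -0.03 and -0.02 in the other lines, and its adjusted p was 5.85e-46 to 0.625 over the alternatives, the highest with all 36 libraries. ZNF595, which was under the count minimum in DU145, differed by 1.09 (SE 0.14, adjusted p = 0.0122, alternatives 0.00279 to 0.204). TAF1C, a subunit of the RNA polymerase I selectivity factor, differed by 0.64 (SE 0.10, adjusted p = 0.0404, alternatives 0.0102 to 0.255). It was at 41.8 and 43.8 CPM with RAW264.7 cells and 30.6 and 30.0 CPM without in DU145, whereas its log2 fold changes were -0.34 in 22Rv1, -0.15 in C4-2 and 0.03 in C4-2B, and the DU145 mono-cultures without RANKL were at 44.99 to 49.7 CPM. SMS, spermine synthase, differed by 0.38 (SE 0.06, adjusted p = 0.0404, alternatives 0.00521 to 0.623). Its log2 fold change was 0.15 in DU145, -0.00 in 22Rv1, -0.29 in C4-2 and -0.37 in C4-2B, so against 22Rv1 alone the difference was 0.16 and did not pass. PLAAT1 was at or near 0 in the other lines, so its difference could not be estimated.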

How the results depend on the processing

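The count of 3 called genes was 2 or 3, all among the same 3 genes, under the alternatives not named here. With all 36 libraries it was 4 (CA3, GLS2, TAF1C and ZNF595), and XAB2 (adjusted p = 0.436) and PLAAT1 (0.757) were lost. It was 0 in edgeR with the 9 DU145 libraries alone (209 genes at an unadjusted p under 0.05), 11 by DESeq2, 62 at a fold above 2 with unadjusted p under 0.05, and 4260 against mono-cultures without RANKL, a control that differs in more than RAW264.7 cells. With each DU145 library left out it was 1, always XAB2. The labels do not say whether same-numbered DU145 libraries shared a batch (correlation of deviations 0.0992). The replicate block gave 2 calls, 1 within each line and 28 in the 4 DU145 libraries, 7 of them cholesterol genes. The count of 4 genes differing between lines was 2 with no filter, with filterByExpr and with the replicate block, 1 with the block within each line, 8 by DESeq2, which kept 3 of the 4, and 1 to 3 with a library left out, where XAB2 was kept each time and SMKR1, USP47 or ZNF28 entered. The median of the cholesterol list was -0.32 to -0.24 with a library left out and 0.177 against mono-cultures without RANKL. Its 21 members at an unadjusted p under 0.05 became 10 with the 9 DU145 libraries, 1 against mono-cultures without RANKL and 12 to 18 with a library left out, the 12 without co-culture replicate 1 or mono-culture replicate 1. With the length and GC correction it was 19, or 20 with the replicate block. XAB2, PLAAT1 and ZNF595 kept their sign under every alternative run for them. With 2 libraries a group, small changes in low genes could not be resolved.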

Other observations

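Genes next to the sterol route, chosen after their values were seen, are given here as values. MMAB, a cobalamin enzyme gene whose promoter faces that of MVK, was at 49.7 and 52.2 CPM with RAW264.7 cells and 61.1 and 67.9 CPM without (log2 fold change -0.35, SE 0.08, unadjusted p = 0.000817). GGPS1, which makes geranylgeranyl diphosphate, had -0.32 (SE 0.07), ERG28, a scaffold of sterol enzymes, -0.26 (SE 0.07), and TMEM97, a regulator of sterol transport, -0.26 (SE 0.07). IDH1, DBI and SLC25A1, which supply NADPH, carry acyl-CoA and export citrate, had -0.28, -0.35 and -0.23. The escort SCAP had 0.01 and the lysosomal cholesterol exporter NPC1 had -0.10. ACADVL and CPT1A, both of fatty acid oxidation, had values above the mono-cultures, with ACADVL at 648 and 696 CPM against 546 and 596 CPM (0.22, SE 0.05) and CPT1A at 34.5 and 35.1 CPM against 27.6 and 28.6 CPM (0.30, SE 0.08). GLS2, a liver-type glutaminase, was at 4.47 and 6.002 CPM against 11.0 and 8.55 CPM (-0.91, SE 0.16, adjusted p = 0.147). None of these passed the adjusted edgeR test in the 16 libraries with RANKL. With all 36 libraries edgeR called GLS2, and DESeq2 called ACADVL.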
